A study of Mus musculus with 20 samples.

Results

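The 30 genes described here encode the enzymes that build cholesterol and long fatty acids, with the sensors that switch them on. They are listed by their known roles, but were chosen with earlier results of these data known. They are 30 of the 39901 distinct gene symbols in the deposited tables. By role they comprised 5 regulators and carriers, 8 enzymes of the mevalonate pathway, 12 enzymes from squalene to cholesterol and 5 enzymes of fatty acid synthesis and desaturation. The table of Control and LOY kidneys held 29 of them by symbol among 26608 named genes, and Msmo1 under its older symbol Sc4mol. The table of the compound experiment held all 30 among 30809. All 30 passed the filter on low counts in both tables.

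Expression was measured by sequencing total RNA from whole kidneys of aged mice after bone marrow transplantation, where LOY stands for loss of the Y chromosome in the blood-forming cells. The first comparison set 6 Control animals (numbers 3, 11, 12, 13, 16 and 17) against 6 LOY animals (numbers 5, 8, 9, 10, 14 and 18). The second set 4 LOY animals given a control compound (numbers 6, 8, 9 and 10) against 4 LOY animals given ABT263 (numbers 15, 16, 17 and 18), a BCL-2 family inhibitor (navitoclax) used to kill senescent cells. Every animal therefore carried a transplanted marrow, and the controls of the second comparison carried LOY marrow. The sources used here do not give the strain, sex, age in months, dose, feeding state, hour of collection or the way the Y chromosome was lost. Each library came from a separately numbered animal within its table; whether a number used in both tables marks the same animal is not given.

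Cholesterol is assembled from acetyl-CoA through mevalonate and isoprenoid units to squalene, which is closed into lanosterol and trimmed to cholesterol. The same acetyl-CoA feeds fatty acid synthase. Most of these genes are targets of the SREBP transcription factors, the products of Srebf2 (mainly sterol genes) and Srebf1 (mainly fatty acid genes). SCAP carries SREBPs out of the endoplasmic reticulum when membrane cholesterol is low, and INSIG1 holds them back when it is high. In the kidney the tubule cells make their own cholesterol, and proximal tubules draw mainly on fatty acid oxidation for energy.

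Total gene counts ran from 13332563 to 19386408 per kidney in the first table and from 14587809 to 20791633 in the second, and values are CPM, counts scaled to a common library total with edgeR's TMM factors. The summed level of 10 proximal tubule markers was 15709 CPM or more in every library, and 0 of the 10 were at 0 in any. Some libraries stood apart. On a score of the same markers (median deviation of log2 CPM), LOY 8 and LOY 10 were the lowest of the first table at -0.78 and -1.07, against -0.08 to 0.45 in the other kidneys, although the plain sum of these markers was highest in LOY 8 at 63561 CPM. Kap alone gave 52967 CPM of the sum in LOY 8. ABT263 16 had 21370 CPM of 10 tubular injury markers, against 1940 to 4244 in the other kidneys of its table. Of these 21370 CPM, 17796 were from Spp1 and 2269 from Clu. Macrophage markers summed to 235 to 383 CPM in Control and 438 to 588 CPM in LOY kidneys, with 6 of 10 past the threshold (Lyz2, Ctss, Fcgr3, C1qc and Aif1 with the smallest p). Tubular injury markers summed to 1930 to 3822 CPM in Control and 3764 to 9101 CPM in LOY kidneys, with 7 of 10 past it (Cd44, Vcam1, Spp1, Sox9 and Havcr1 with the smallest p).

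Per kilobase of exon, the highest of the 30 genes in Control kidneys was Hmgcs1 (chr13:119690379-119708260, GRCm38), which makes HMG-CoA at the entry to the mevalonate pathway, at 98.9 ± 15.4 CPM per kb (SD, n = 6). Cyp51, which removes a methyl group from lanosterol, followed at 42.5 ± 4.09, and Acat2, which joins acetyl-CoA units, at 41.1 ± 1.84. Those levels of Cyp51 and Acat2, and that of Acly at 38.7 ± 4.67, lay within about 1 SD of each other. The lowest was Lss, lanosterol synthase, at 1.94 ± 0.189 CPM per kb. That rank depends on the exon length used, 10787 bases for Lss. By mean CPM without division by length, Lss was above Ggps1, Mvk and Pmvk in the Control kidneys. Hmgcs1 was also the highest in the control-compound kidneys, at 67.5 ± 20.5 CPM per kb (SD, n = 4), with Fads2 next at 50.8 ± 3.25. Fdps, farnesyl diphosphate synthase, was at 6.31 ± 0.526 CPM per kb in the Control kidneys but only 0.270 ± 0.0610 in the control-compound kidneys. Fdps has near-identical copies in the genome, as Acat2 has in its neighbour Acat3, so the counting in each table can shift their level, and levels are not compared between tables.

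Promoter windows from RefSeq (GRCm38.p6, from 250 bases before to 50 after the transcription start) were used for 25 of the 30 genes. They are shown for Hmgcs1, with the only sterol regulatory element match of the set, for Idi1, lowest in the LOY kidney with the most Hmgcs1, for Msmo1 and Sc5d, the members with the smallest p on the higher and the lower side with LOY, and for Fasn, the widest difference in the compound experiment. Capitals mark CCAAT boxes on either strand and, in Hmgcs1, the element TCACCCCAC.
Hmgcs1 (chr13:119690101-119690400, forward strand): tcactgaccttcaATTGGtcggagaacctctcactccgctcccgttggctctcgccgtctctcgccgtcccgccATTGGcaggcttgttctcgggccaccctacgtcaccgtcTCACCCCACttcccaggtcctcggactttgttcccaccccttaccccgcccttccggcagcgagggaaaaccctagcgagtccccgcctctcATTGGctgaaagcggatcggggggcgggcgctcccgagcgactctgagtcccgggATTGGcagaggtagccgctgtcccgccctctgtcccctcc
Idi1 (chr13:8885356-8885655, forward strand): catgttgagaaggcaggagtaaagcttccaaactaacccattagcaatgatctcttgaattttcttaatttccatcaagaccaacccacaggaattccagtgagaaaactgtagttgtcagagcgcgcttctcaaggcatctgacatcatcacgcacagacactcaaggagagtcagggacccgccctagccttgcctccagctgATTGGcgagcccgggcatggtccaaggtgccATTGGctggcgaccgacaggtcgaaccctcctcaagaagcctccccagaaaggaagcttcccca
Msmo1 (chr8:64733529-64733828, reverse strand): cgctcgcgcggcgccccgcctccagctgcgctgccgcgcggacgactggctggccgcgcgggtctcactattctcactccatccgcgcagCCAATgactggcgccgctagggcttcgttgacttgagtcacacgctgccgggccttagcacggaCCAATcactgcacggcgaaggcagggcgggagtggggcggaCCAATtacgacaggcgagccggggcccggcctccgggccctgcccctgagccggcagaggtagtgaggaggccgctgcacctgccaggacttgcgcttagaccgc
Sc5d (chr9:42264251-42264550, reverse strand): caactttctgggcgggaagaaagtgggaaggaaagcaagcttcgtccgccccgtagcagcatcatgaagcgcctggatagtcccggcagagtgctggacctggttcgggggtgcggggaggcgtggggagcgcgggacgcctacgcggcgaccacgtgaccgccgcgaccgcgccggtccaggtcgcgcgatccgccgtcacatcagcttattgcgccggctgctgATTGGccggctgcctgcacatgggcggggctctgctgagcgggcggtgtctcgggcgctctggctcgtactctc
Fasn (chr11:120824498-120824797, reverse strand): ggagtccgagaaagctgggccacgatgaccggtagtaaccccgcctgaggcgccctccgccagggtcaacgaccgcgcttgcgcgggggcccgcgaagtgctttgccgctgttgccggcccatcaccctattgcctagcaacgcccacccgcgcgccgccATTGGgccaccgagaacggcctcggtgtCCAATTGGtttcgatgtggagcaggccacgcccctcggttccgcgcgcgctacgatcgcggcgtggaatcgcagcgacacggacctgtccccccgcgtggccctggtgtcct
The sterol regulatory element was searched as TCACNCCAC on both strands. It was found in 1.24% of the 32851 RefSeq promoter windows searched, which are called all windows here. Among the member windows it was found in 3.23% (1 of 31). That match was in Hmgcs1, 1 of the 25 members with a window, starting 137 bases before the transcription start. TCACGTGA was found in 0.974% of all windows and in 0 members. The CCAAT box, bound by NF-Y, was found in 37.4% of all windows and in 71.0% of the 31 member windows (22 of 31), and in at least 1 window of 21 of the 25 genes. GGGCGG, the GC box, was found in 35.7% of all windows and in 77.4% of the member windows (24 of 31). Both strands were searched for every motif, overlapping matches were kept, and a window counted once. These are letter matches, and no binding was measured.

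The first comparison asks what LOY in blood cells does to the kidney. None of the 30 genes passed the threshold (0 of 30; edgeR quasi-likelihood test, Benjamini-Hochberg adjusted p under 0.05), where 1.18% of the 14978 genes tested did, 1.11% higher and 0.0601% lower. The adjusted p of the members ran from 0.0866 to 0.968. The members leaned lower: 19 had a negative and 11 a positive log2 fold change, with a median of -0.11, against 0.02 over all genes tested, of which 52.3% were positive. At an unadjusted p under 0.05 there were 2 members higher (Msmo1 and Fdps) and 5 lower (Sc5d, Lbr, Stard4, Dhcr7 and Fads2), or 7 of 30, where 22.8% of all genes tested were at that level, 13.5% higher and 9.33% lower. The plot of fold changes by gene shows that enzymes acting next to each other in the pathway lay on both sides of 0.

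**Figure D1:**
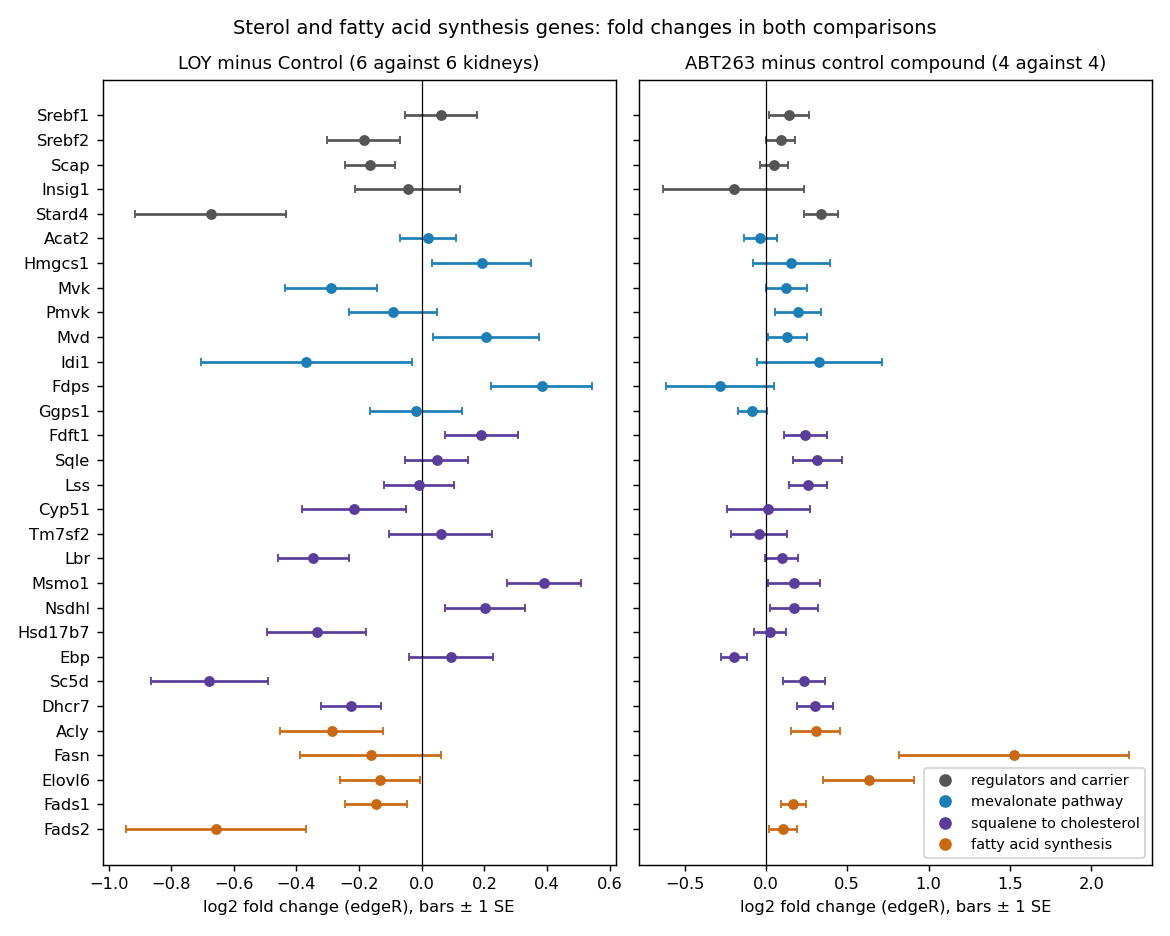
Log2 fold change of each of the 30 genes (point) ± 1 SE (bar) from edgeR, LOY minus Control on the left (6 against 6 kidneys) and ABT263 minus control compound on the right (4 against 4), coloured by role. With LOY 11 members are above 0 and 19 below, and with ABT263 24 are above and 6 below; Fasn has the widest bar on the right.

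Of the 5 regulators and carriers 4 had a negative log2 fold change with LOY, with a median of -0.17. Srebf2 (chr15:82147181-82205379) was at 87.8, 122, 120.3, 110.4, 104 and 112 CPM in the Control and 97.9, 70.4, 94.7, 104, 100.1 and 110.3 CPM in the LOY kidneys, in order of animal number. The groups overlapped apart from LOY 8, which was the lowest, and the log2 fold change was -0.19 ± 0.12 (SE; edgeR adjusted p = 0.328). Srebf1 (chr11:60199089-60222581) was at 68.8, 84.0, 65.7, 74.3, 66.7 and 59.2 CPM in Control and 68.9, 75.5, 91.3, 77.0, 66.3 and 58.3 CPM in LOY kidneys, a log2 fold change of 0.06 ± 0.12 (edgeR adjusted p = 0.755). Its highest kidney was LOY 9 and its lowest LOY 18, so that LOY spanned the whole Control range. Scap differed by -0.17 ± 0.08 (edgeR adjusted p = 0.229), with 5 of 6 LOY kidneys below the lowest Control kidney.

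Insig1 (chr5:28071363-28078662) was at 35.6, 65.4, 69.8, 56.4, 47.4 and 58.2 CPM in Control and 41.2, 60.2, 65.6, 64.1, 42.3 and 49.1 CPM in LOY kidneys. Control 3 was the lowest of all 12, the groups overlapped throughout, and the log2 fold change was -0.04 ± 0.17 (edgeR adjusted p = 0.884). Stard4 (chr18:33199355-33213862), which moves cholesterol between membranes inside the cell, was at 22.4, 43.1, 51.0, 41.6, 26.7 and 31.3 CPM in Control and 26.4, 10.7, 24.7, 17.8, 29.98 and 25.9 CPM in LOY kidneys. LOY 8 was the lowest kidney, LOY 10 the next, and Control 3 the lowest of its group. The log2 fold change of Stard4 was -0.67 ± 0.24 (edgeR adjusted p = 0.152) and -0.47 among animals numbered above 10.

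In the mevalonate pathway 4 members were above and 4 below Control, with a median log2 fold change of 0.00. Hmgcs1 was at 361, 389, 556, 492, 467 and 462 CPM in Control and 461, 772, 455, 519, 498.8 and 408 CPM in LOY kidneys. LOY 8 stood above all others and the remaining LOY kidneys lay inside the Control range. The log2 fold change of Hmgcs1 was 0.19 ± 0.16 (edgeR adjusted p = 0.458), and 0.04 without LOY 8. Idi1 (chr13:8885501-8892451), which converts the isoprene units that prenyl chains are built from, was at 15.7, 17.9, 26.9, 27.1, 19.3 and 22.2 CPM in Control and 24.996, 3.77, 11.6, 14.2, 29.1 and 16.3 CPM in LOY kidneys. It was lowest in LOY 8, the kidney with the highest Hmgcs1, and highest in LOY 14, and LOY spread wider than Control on both sides. Its log2 fold change was -0.37 ± 0.34 (edgeR adjusted p = 0.499), -0.17 without LOY 8 and -0.60 without LOY 14.

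Fdps (chr3:89093588-89101959), which joins those units into farnesyl diphosphate, was at 29.3, 27.1, 25.1, 24.1, 28.8 and 24.8 CPM in Control and 34.3, 54.2, 35.6, 32.2, 25.3 and 26.2 CPM in LOY kidneys. The 4 LOY kidneys numbered 10 or below were above every Control kidney, and LOY 14 and LOY 18 were inside the Control range. The log2 fold change of Fdps was 0.38 ± 0.16 (edgeR adjusted p = 0.190), 0.21 without LOY 8 and -0.01 among animals numbered above 10. Mvd, which makes isopentenyl diphosphate, differed by 0.20 ± 0.17 and Mvk, mevalonate kinase, by -0.29 ± 0.15 (edgeR adjusted p = 0.457 and 0.246). For Mvk 5 of 6 LOY kidneys were below the lowest Control kidney. Acat2, Pmvk (phosphomevalonate kinase) and Ggps1 (geranylgeranyl diphosphate synthase) differed by 0.02 ± 0.09, -0.09 ± 0.14 and -0.02 ± 0.15.

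From squalene to cholesterol 6 members were above and 6 below Control, with a median of 0.02. The smallest p was that of Sc5d (chr9:42251595-42264256), which places a double bond in the sterol ring. It was at 31.2, 40.2, 67.2, 51.0, 48.8 and 56.1 CPM in Control (49.1 ± 12.5, SD, n = 6) and 31.6, 20.0, 25.2, 31.8, 38.7 and 36.6 CPM in LOY kidneys (30.6 ± 7.01, SD, n = 6). LOY 8 and LOY 9 were below every Control kidney, and Control 3 was the lowest Control kidney, inside the LOY range. Sc5d differed by -0.68 ± 0.19 on the log2 scale (edgeR adjusted p = 0.0866), and -0.49 among animals numbered above 10. DESeq2 gave -0.69 with an adjusted p of 0.0173 and voom -0.64 with 0.0311, and edgeR without Control 3 gave -0.78 with 0.0274, so that Sc5d passed in those settings. Over all 24 settings its adjusted p ran from 0.0173 to 0.572, and it passed in 3.

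Msmo1 (chr8:64718139-64733792), which oxidises the methyl groups that are removed after lanosterol, was the only member whose groups did not overlap, where 2.02% of all genes tested did not (1.56% higher and 0.461% lower). It was at 33.0, 32.5, 35.4, 34.9, 35.2 and 34.7 CPM in Control and 42.0, 55.7, 48.3, 52.1, 35.6 and 36.02 CPM in LOY kidneys. The gap was narrow: the highest Control kidney had 35.4 CPM and LOY 14 had 35.6, while LOY 5, 8, 9 and 10 had 42.0 CPM or more. On the log2 scale Msmo1 differed by 0.39 ± 0.12 (edgeR adjusted p = 0.110), and 0.05 among animals numbered above 10.

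Lbr (chr1:181815335-181843046), the lamin B receptor, which also reduces the sterol ring, was at 54.9, 43.9, 56.2, 52.7, 55.3 and 49.6 CPM in Control and 47.7, 32.3, 39.8, 35.1, 48.3 and 42.4 CPM in LOY kidneys. For Lbr 4 of 6 LOY kidneys were below every Control kidney, and the log2 fold change was -0.35 ± 0.11 (edgeR adjusted p = 0.132), or -0.19 among animals numbered above 10. Tm7sf2, which carries out the same reduction in the endoplasmic reticulum, differed by 0.06 ± 0.16 (edgeR adjusted p = 0.836). Dhcr7 (chr7:143823145-143848410), which makes cholesterol from its last precursor, was at 28.3, 29.6, 30.9, 29.7, 31.5 and 31.9 CPM in Control and 30.3, 24.0, 28.7, 22.5, 24.3 and 25.7 CPM in LOY kidneys. For Dhcr7 also 4 of 6 LOY kidneys were below every Control kidney, the log2 fold change was -0.23 ± 0.10 (edgeR adjusted p = 0.193), and it was -0.30 among animals numbered above 10.

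Sqle (chr15:59315077-59331192), squalene epoxidase, a rate-controlling step, was at 105, 99.6, 115, 108, 97.0 and 85.9 CPM in Control and 121, 101, 105, 90.6, 118 and 96.4 CPM in LOY kidneys. LOY 5 and LOY 14 were above every Control kidney and the other 4 LOY kidneys inside the Control range, and the log2 fold change was 0.05 ± 0.10 (edgeR adjusted p = 0.786). Fdft1, squalene synthase, differed by 0.19 ± 0.12, Nsdhl, the decarboxylase of the sterol demethylation, by 0.20 ± 0.13, and Ebp, a sterol isomerase, by 0.09 ± 0.13. Hsd17b7, the ketone reductase of the same demethylation, differed by -0.34 ± 0.16 (edgeR adjusted p = 0.221), Cyp51 by -0.22 ± 0.16 and Lss by -0.01 ± 0.11.

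**Figure D2:**
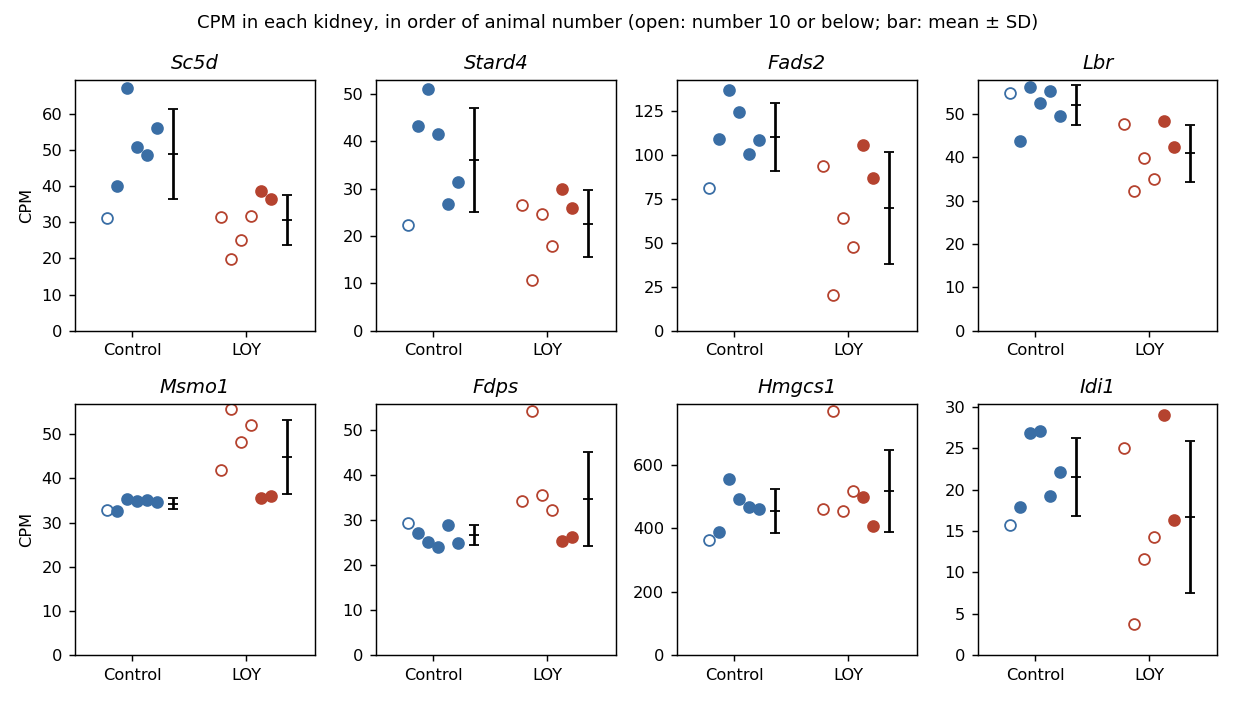
CPM in each kidney (points, in order of animal number; open points are animals numbered 10 or below) for 8 members in the Control (blue) and LOY (red) groups, with the mean and SD of each group of 6 as a bar; every axis starts at 0. Msmo1 and Fdps are high in the open LOY points (42.0 CPM or more and 32.2 CPM or more) and lie at the Control level in the filled ones, while Sc5d, Stard4, Fads2 and Lbr are lower in LOY with overlapping ranges.

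All 5 fatty acid genes had a negative log2 fold change with LOY, with a median of -0.16 and 0 past the threshold. Fads2 (chr19:10062765-10101746), a desaturase that starts the making of polyunsaturated fatty acids, was at 80.8, 109, 137, 124, 100.2 and 108 CPM in Control and 93.7, 20.3, 64.2, 47.5, 105 and 86.4 CPM in LOY kidneys. LOY 8, LOY 10 and LOY 9 were below every Control kidney, and LOY 5, 14 and 18 inside the Control range. Fads2 differed by -0.66 ± 0.29 (edgeR adjusted p = 0.200), -0.47 without LOY 8 and -0.27 among animals numbered above 10. Its neighbour on chromosome 19, Fads1, differed by -0.15 ± 0.10 (edgeR adjusted p = 0.367). Acly, which splits citrate into acetyl-CoA, ranged from 170.1 to 237 CPM in Control and from 90.4 CPM in LOY 8 to 209 CPM in LOY 14, a log2 fold change of -0.29 ± 0.16 (edgeR adjusted p = 0.293).

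Fasn (chr11:120805846-120824547), fatty acid synthase, was at 129.9, 67.3, 66.6, 72.0, 63.3 and 59.4 CPM in Control and 60.1, 38.1, 76.4, 104, 64.3 and 66.1 CPM in LOY kidneys. Control 3 and LOY 10 were the highest of their groups, LOY 8 the lowest of all, and the other kidneys lay between 59.4 and 76.4 CPM. The log2 fold change was -0.16 ± 0.23 (edgeR adjusted p = 0.664), 0.05 without Control 3 and -0.34 without LOY 10. The summed level of 10 adipocyte markers was also highest in Control 3 (469 CPM) and LOY 10 (358 CPM), followed by LOY 9 (264 CPM) and LOY 8 (175 CPM), and lay between 57.4 and 101 CPM in the other 8 kidneys; its part in the result was not tested beyond a fit with that sum as a term, which gave -0.23. Of the adipocyte markers 6 were tested and 0 passed; Pparg and Fabp4, with the smallest p, differed by 0.33 ± 0.30 and 0.24 ± 0.45, and Lep, Plin1, Retn, Car3 or Cfd were at 0 in some kidneys. Elovl6 (chr3:129532355-129638495), which lengthens palmitate, was at 33.5, 25.5, 28.5, 24.0, 32.3 and 33.5 CPM in Control and 20.8, 30.4, 23.6, 31.0, 27.5 and 28.4 CPM in LOY kidneys, a log2 fold change of -0.13 ± 0.13 (edgeR adjusted p = 0.516). LOY 5 and LOY 9 were below every Control kidney and the other 4 LOY kidneys inside the Control range.

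Animal number was uneven between the groups: 5 Control and 2 LOY animals were numbered above 10, and 1 Control and 4 LOY animals 10 or below. What the numbers stand for is not given. Of the 11 members higher with LOY, 9 were lower among the animals numbered above 10 alone, and only Msmo1 and Sqle stayed above 0. Of the 19 members lower with LOY, 17 stayed below 0 in those animals. With animal number above 10 (yes or no) as a term, 0 members and 0 of all genes passed the threshold. LOY 8 was the extreme kidney on both sides, with the lowest Idi1, Fads2, Stard4, Sc5d, Acly, Fasn and Lbr and the highest Hmgcs1, Fdps, Nsdhl, Msmo1, Mvd and Ebp, as the map of all 20 kidneys shows.

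**Figure D3:**
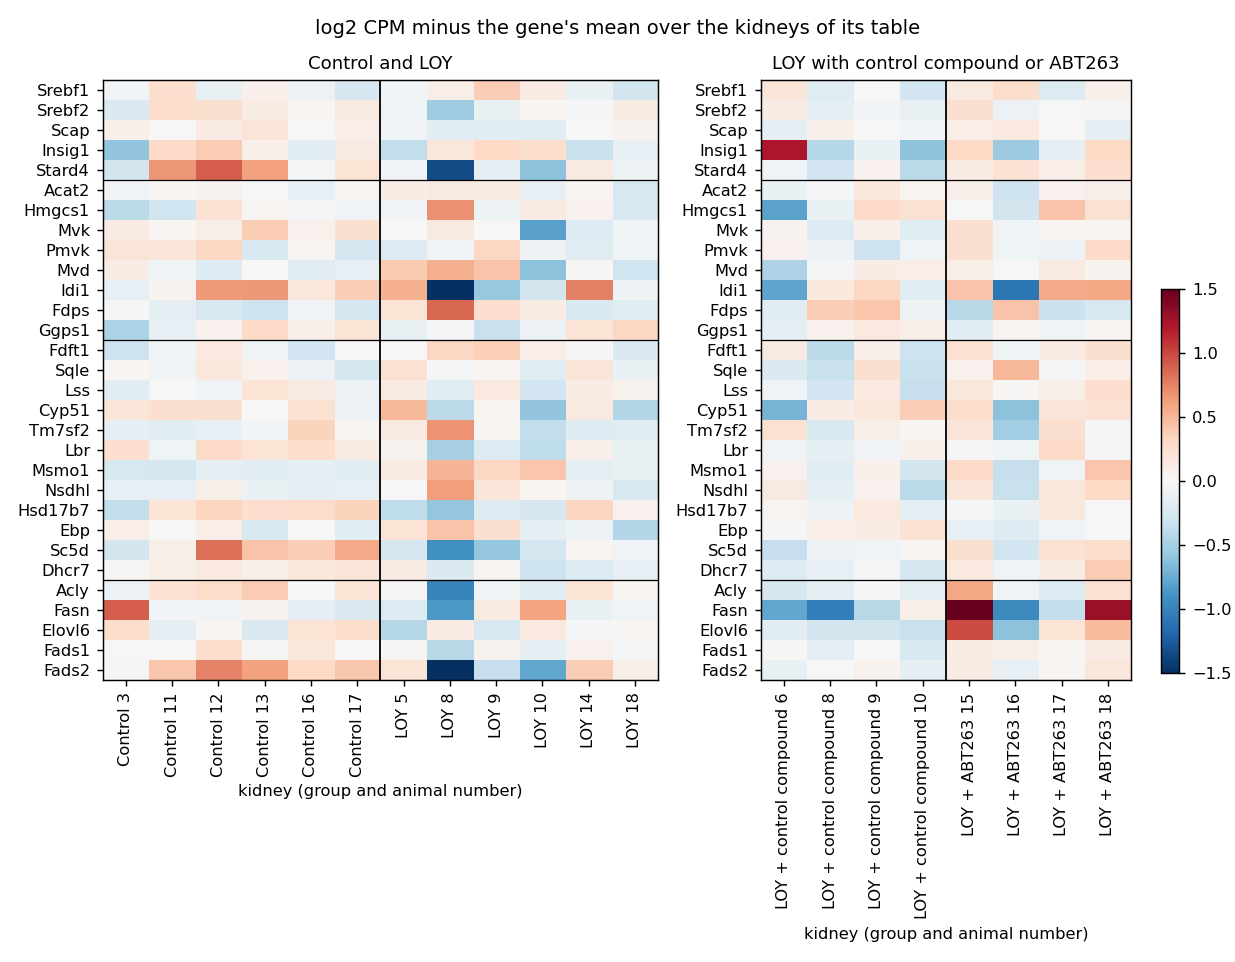
Log2 CPM of the 30 genes (rows, ordered by role with lines between roles) minus each gene's mean over its table, for the 12 kidneys of the first (left) and the 8 of the second table (right); columns are kidneys by group and animal number, and colours stop at ± 1.5. LOY 8 combines the deepest blue (Idi1, Fads2, Stard4) with red (Hmgcs1, Fdps), and ABT263 15 and 18 stand out in red for Fasn.

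Proximal tubule markers were set beside the members. Of 10 proximal tubule markers 9 were lower with LOY, with a median log2 fold change of -0.48 and 0 past the threshold; Slc5a12 and Cubn, with the smallest p, differed by -1.17 ± 0.29 and -0.54 ± 0.17. With group means removed, Fads2 followed the proximal tubule score over the 12 kidneys (Pearson's r = 0.79, permutation p = 0.00340, adjusted over 180 such relations 0.109; Spearman's rho = 0.90, permutation p = 0.00012, adjusted 0.0216). Without LOY 8 and LOY 10 r was 0.88, and within the Control and the LOY group it was 0.95 (exact permutation p = 0.00556) and 0.77 (exact permutation p = 0.0569). Stard4 gave r = 0.75 (permutation p = 0.00611, adjusted 0.110) and rho = 0.71 (permutation p = 0.0127, adjusted 0.1602), and r = 0.77 without LOY 8 and LOY 10. The same 30 members were set against the injured tubule score and the adipocyte sum. The 180 relations cover both comparisons. By Pearson's r, 0 of the relations in the 12 kidneys passed after adjustment. Of the 30 members, r was above 0 for 18 with the proximal tubule score and 11 with the adipocyte sum. With the injured tubule score r was above 0 for only 3, Elovl6 among them. By Spearman's rho 1 passed with the proximal tubule score (Fads2), 1 with the injured tubule score and 3 with the adipocyte sum. Elovl6 gave rho = 0.88 with the injured tubule score (permutation p = 0.0003, adjusted 0.027; r = 0.81, permutation p = 0.00145, adjusted 0.0826), and r = 0.83 without Control 3 and LOY 10, 0.76 within Control (exact permutation p = 0.0542) and 0.84 within LOY (exact permutation p = 0.0319). With the adipocyte sum, rho was -0.85 for Acly, -0.84 for Fads2 and -0.83 for Scap (permutation p = 0.0008, 0.00095 and 0.00133, adjusted 0.04275, 0.04275 and 0.0479). The matching r were -0.49, -0.58 and -0.62 (permutation p = 0.0994, 0.0481 and 0.0292, adjusted 0.265, 0.2002 and 0.164), and -0.56, -0.62 and -0.82 without Control 3 and LOY 10. Within Control they were -0.84, -0.88 and -0.24 (exact permutation p = 0.00278, 0.00556 and 0.621), and within LOY -0.41, -0.59 and -0.93 (exact permutation p = 0.521, 0.208 and 0.0139). In whole kidney, fewer cells of a type and less RNA per cell cannot be told apart. Markers of the adrenal cortex and the liver, both rich in sterol enzymes, gave 0 genes past the threshold: Akr1b7 and Mc2r differed by 0.62 ± 0.29 and 1.03 ± 0.64, and Ttr and Apoa2 by 0.35 ± 0.11 and 0.79 ± 0.35. Of the 7 liver markers tested 4 were higher and 3 lower. The 8 listed summed to 1703 ± 334 CPM in Control and 1446 ± 245 CPM in LOY kidneys (SD, n = 6). Cyp2e1 alone was at 961 to 1961 CPM and 940 to 1667 CPM in these groups. Summed adrenal markers lay between 28.7 and 45.4 CPM in all 12 kidneys.

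Other genes of the pathways, listed apart from the 30, also gave 0 genes past the threshold. Of 20 further synthesis genes 16 were lower with LOY and 0 passed, with a median of -0.18. The smallest p were those of Acacb, a mitochondrial acetyl-CoA carboxylase that restrains fatty acid oxidation, at -0.52 ± 0.13 (edgeR adjusted p = 0.0692), and Gpam, which starts triglyceride synthesis, at -1.23 ± 0.40 (edgeR adjusted p = 0.131). Gpam was at 33.3, 53.8, 90.3, 65.4, 53.1 and 61.7 CPM in Control and 27.6, 5.25, 14.0, 15.6, 36.4 and 52.7 CPM in LOY kidneys, lowest in LOY 8, 9 and 10. Of 20 genes of sterol uptake, storage and efflux 10 were higher and 10 lower, and 0 passed. Vldlr, a lipoprotein receptor, differed by -0.48 ± 0.13 (edgeR adjusted p = 0.0866).

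The members were also compared with each other across the 12 kidneys. With group means removed, the median r over the 435 pairs was 0.04, against 0.001 over all pairs of genes tested, and 0.16 over the 190 pairs among the 20 sterol arm enzymes. These pairs share their kidneys and are described without a test. Of 8 pairs examined more closely, 0 passed after adjustment. Hmgcs1 and Sqle gave r = 0.02 (permutation p = 0.961, adjusted 0.961; rho = 0.01, permutation p = 0.974). Hmgcs1 and Fasn gave the smallest p, at r = -0.63 (permutation p = 0.0311, adjusted 0.249) and rho = -0.69 (permutation p = 0.0172, adjusted 0.138). Within Control r was -0.64 (exact permutation p = 0.171) and within LOY -0.62 (exact permutation p = 0.224). Without Control 3 and LOY 8 the r of this pair was -0.11, so that its size depended on those kidneys. Hmgcs1 and Idi1 gave r = 0.92 within Control (exact permutation p = 0.0167) and -0.78 within LOY (exact permutation p = 0.106), and 0.14 over the kidneys without Control 3 and LOY 8. The genes outside the set that most resembled the median of the sterol arm over the 12 kidneys were Hibadh (r = 0.91), Lmo4 (0.91), Tprkb (0.87), Dpep1 (0.87) and Gstk1 (0.86). The median SD of log2 CPM within groups was 0.249 for the members, 0.305 for all genes tested and 0.248 for genes with a mean of 10 CPM or more.

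The second comparison asks what ABT263 does in kidneys of animals with LOY marrow. Again 0 of 30 genes passed the threshold in edgeR, as did 0 of the 16956 genes tested (0.00%); 5.91% of all genes and 4 of the 30 members had an unadjusted p under 0.05, and DESeq2 called 44 and voom 11 genes, 0 of them members. The members leaned higher: 24 had a positive and 6 a negative log2 fold change, with a median of 0.15, against -0.00278 over all genes, of which 49.4% were positive. Without ABT263 15 and 18 that median was 0.04. At an unadjusted p under 0.05 the members were Stard4, Dhcr7 and Lss on the higher side, where 2.95% of all genes were, and Ebp on the lower side, where 2.96% were. ABT263 animals were numbered 15 to 18 and control-compound animals 6 to 10, so animal number and treatment cannot be told apart.

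Among the regulators, Stard4 had the smallest p. It was at 83.4, 71.2, 91.4 and 65.9 CPM with the control compound (animals 6, 8, 9 and 10) and 95.1, 102, 93.3 and 104 CPM with ABT263 (animals 15 to 18). The groups did not overlap, as for 4.29% of all genes tested, and the log2 fold change was 0.34 ± 0.10 (edgeR adjusted p = 0.662). Srebf2 was at 137, 116, 123 and 117 CPM with the control compound and 149.7, 120.0, 128 and 129 CPM with ABT263, and differed by 0.09 ± 0.09 (edgeR adjusted p = 0.897). Only ABT263 15 was above the control-compound range. Srebf1 was at 73.9, 57.4, 65.8 and 53.5 CPM with the control compound and 71.9, 78.6, 56.7 and 69.1 CPM with ABT263, a log2 fold change of 0.14 ± 0.12 with overlap. Insig1 was at 132, 42.2, 53.1 and 37.4 CPM with the control compound and 70.0, 38.8, 51.3 and 70.0 CPM with ABT263. Control-compound animal 6 was far above the other 7 kidneys, and the log2 fold change was -0.20 ± 0.43 with it and 0.38 without it. Scap differed by 0.05 ± 0.08.

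In the mevalonate pathway Hmgcs1 was at 182, 298, 389.5 and 371 CPM with the control compound and 319.9, 263, 427 and 372 CPM with ABT263. Control-compound animal 6 was the lowest, and the log2 fold change was 0.16 ± 0.24 (edgeR adjusted p = 0.943), or -0.03 without that kidney. Idi1 was at 21.1, 40.9, 45.5 and 32.3 CPM with the control compound and 49.1, 17.2, 54.5 and 54.9 CPM with ABT263. ABT263 15, 17 and 18 were above the control-compound range and ABT263 16 below it, for a log2 fold change of 0.33 ± 0.38 (edgeR adjusted p = 0.917), 0.60 without ABT263 16 and 0.15 without control-compound animal 6. The other 6 enzymes lay between -0.28 ± 0.33 (Fdps, at about 1 CPM in this table) and 0.19 ± 0.14 (Pmvk), with Mvk, Mvd, Acat2 and Ggps1 at 0.13 ± 0.12, 0.13 ± 0.12, -0.03 ± 0.10 and -0.08 ± 0.09.

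From squalene to cholesterol 10 of 12 members were above the control compound, with a median of 0.17. Dhcr7 was at 21.2, 22.4, 23.9 and 20.4 CPM with the control compound and 27.0, 23.5, 26.3 and 31.7 CPM with ABT263. The groups overlapped at ABT263 16 only, and the log2 fold change was 0.30 ± 0.11 (edgeR adjusted p = 0.750). Lss was at 32.0, 27.3, 36.7 and 26.1 CPM and 37.3, 33.7, 35.4 and 39.6 CPM, with a log2 fold change of 0.26 ± 0.12 (edgeR adjusted p = 0.827), control-compound animal 9 lying among the ABT263 kidneys. Sqle was at 88.2, 80.9, 120.3 and 81.1 CPM and 107, 144, 101 and 109 CPM, with a log2 fold change of 0.32 ± 0.15 (edgeR adjusted p = 0.827) and the highest value in ABT263 16. Ebp, which moves a double bond in the sterol ring, ran the other way, at 43.7, 47.8, 48.3 and 52.0 CPM with the control compound and 41.0, 39.0, 42.9 and 44.4 CPM with ABT263. Its log2 fold change was -0.20 ± 0.08 (edgeR adjusted p = 0.827), and 3 of 4 ABT263 kidneys were below every control-compound kidney. Fdft1, Sc5d, Msmo1 and Nsdhl differed by 0.24 ± 0.13, 0.23 ± 0.13, 0.17 ± 0.16 and 0.17 ± 0.15, and Lbr, Hsd17b7, Cyp51 and Tm7sf2 by 0.10 ± 0.10, 0.02 ± 0.10, 0.02 ± 0.25 and -0.04 ± 0.17.

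The largest log2 fold changes of the set with ABT263 were those of Fasn and Elovl6, and all 5 fatty acid genes were positive with a median of 0.31. Fasn was at 111, 93.5, 144 and 204 CPM with the control compound (138 ± 48.4, SD, n = 4) and 871, 99.0, 149 and 471 CPM with ABT263 (398 ± 356, SD, n = 4). ABT263 15 and 18 were far above every control-compound kidney, while ABT263 16 and 17 lay among them. Fasn differed by 1.53 ± 0.71 (edgeR adjusted p = 0.827), 0.80 without ABT263 15 and -0.15 without ABT263 15 and 18. Elovl6 was at 42.3, 39.0, 39.1 and 37.5 CPM with the control compound and 93.3, 30.8, 54.6 and 66.0 CPM with ABT263. ABT263 15, 17 and 18 were above and ABT263 16 below the narrow control-compound range, for a log2 fold change of 0.63 ± 0.28 (edgeR adjusted p = 0.827), 0.36 without ABT263 15 and 0.11 without ABT263 15 and 18.

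Acly followed with 215, 232, 251 and 234 CPM and 384, 247, 222 and 301 CPM, a log2 fold change of 0.31 ± 0.15 (edgeR adjusted p = 0.827), and 0.01 without ABT263 15 and 18. Fads1, a desaturase, was at 115, 103, 113 and 96.1 CPM with the control compound and 122, 119.6, 115 and 123 CPM with ABT263, without overlap, for a log2 fold change of 0.17 ± 0.08 (edgeR adjusted p = 0.827). Fads1 and Stard4 were thus the 2 of 30 members without overlap between groups, both higher, where 2.04% of all genes were without overlap and higher and 2.25% without overlap and lower. The gap was narrow for Fads1: the highest control-compound kidney had 114.7 CPM and the lowest ABT263 kidney 115.2. Fads2 differed by 0.11 ± 0.09.

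Adipocyte markers were highest in the same kidneys as Fasn. Their sum was 266, 78.9, 149 and 219 CPM with the control compound and 617, 64.1, 160.2 and 626 CPM with ABT263, so ABT263 15 and 18 were the highest and ABT263 16 the lowest, with Adipoq and Lep at 0 in ABT263 16. All 9 adipocyte markers tested had a positive log2 fold change (median 1.18) and 0 passed the threshold; Pparg and Lipe, with the smallest p, differed by 0.94 ± 0.36 and 0.57 ± 0.37. With the log2 of that sum as a term in the fit, the log2 fold change of Fasn was 0.57, that of Elovl6 0.33 and that of Stard4 0.33. The part of adipose tissue in these differences was otherwise not tested. Over the 8 kidneys, r with the adipocyte sum was above 0 for 25 of the 30 members. After adjustment 0 passed, by Pearson's r or by Spearman's rho, and the proximal and injured tubule scores also gave 0. No single r is printed, since ABT263 15 and 18 stood apart from the other 6 kidneys on Fasn and the adipocyte sum.

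**Figure D4:**
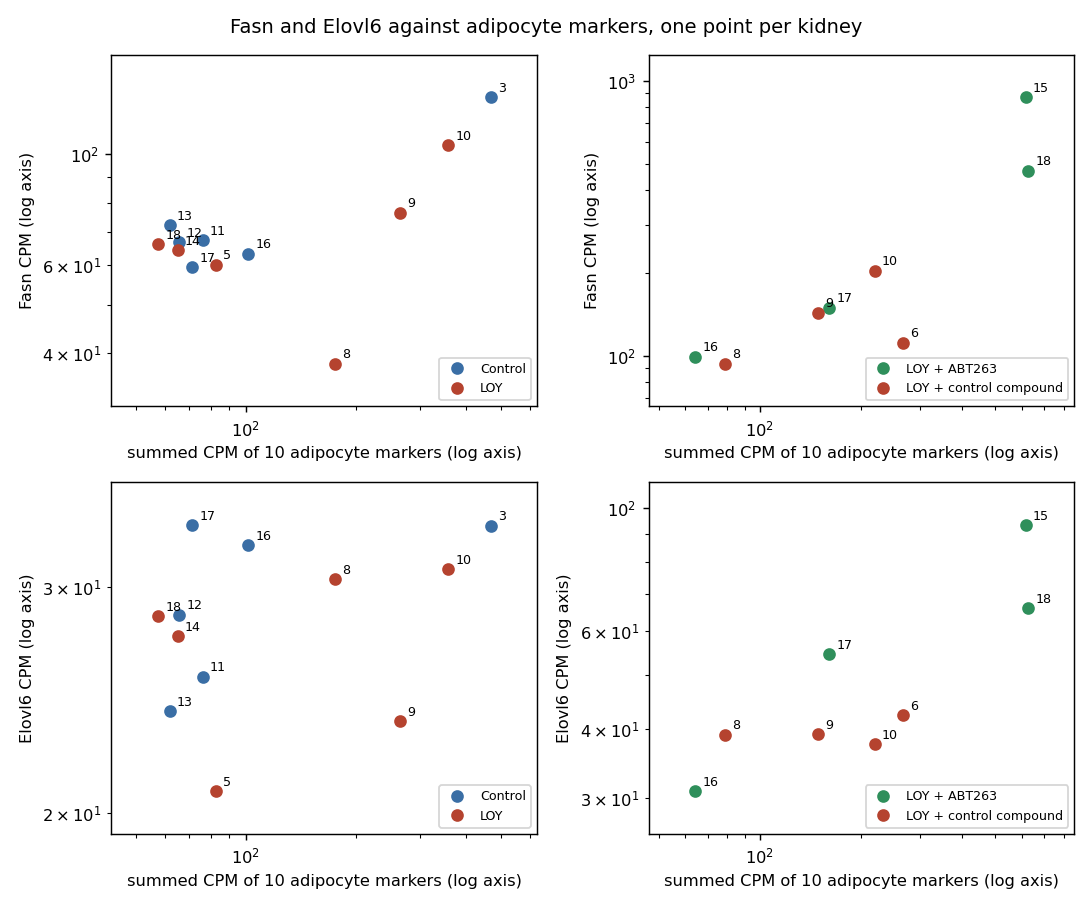
CPM of Fasn (top) and Elovl6 (bottom) against the summed CPM of 10 adipocyte markers, with log axes, for the first (left) and the second table (right); each point is a kidney labelled by animal number and coloured by group. Control 3 and LOY 10 on the left, and ABT263 15 and 18 on the right, are highest on both axes for Fasn.

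Among the 20 further synthesis genes 16 were higher with ABT263, with a median of 0.06, a range from -0.19 to 1.59 and 0 past the threshold. Their sum was 4184 and 3646 CPM in ABT263 15 and 18, against 2456 to 2856 CPM in the other kidneys. Gpam differed by 0.34 ± 0.11 (edgeR adjusted p = 0.716). Of the 20 uptake, storage and efflux genes 10 were higher and 10 lower, with 0 past the threshold, and Vldlr differed by 0.19 ± 0.08. Other cell type markers gave 0 genes past the threshold. Macrophage markers were lower in 9 of 10, with a median of -0.45, and those of smallest p were Lyz2 (-0.84 ± 0.19) and C1qc (-0.53 ± 0.16). Injured tubule markers went both ways, 4 higher and 6 lower with a median of -0.15 and a range from -0.66 to 1.39; those of smallest p were Cd44 (-0.66 ± 0.26) and Vcam1 (-0.64 ± 0.26). Proximal tubule markers were higher in 4 and lower in 6 of 10, with a median of -0.04, and those of smallest p were Slc5a12 (0.32 ± 0.11) and Cubn (0.20 ± 0.09). Of 8 liver markers 5 were higher and 3 lower, with a range from -0.50 to 3.50. Those of smallest p were Ahsg (2.42 ± 0.76), at 3.43 CPM or less in every kidney, and Apoa1 (1.49 ± 0.66). The marker at 3.50 had 251 CPM in ABT263 16 and 3.73 to 6.66 CPM in the other ABT263 kidneys. The sum of the 8 was 1316 ± 302 CPM with the control compound and 1172 ± 119 CPM with ABT263 (SD, n = 4). Cyp2e1 alone was at 793 to 1566 CPM and 825 to 1164 CPM in these groups. All 3 adrenal markers tested were above 0, with Akr1b7 at 0.51 ± 0.31 and Scarb1 at 0.08 ± 0.13.

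The medians of the regulators, the mevalonate enzymes, the sterol enzymes and the fatty acid genes were -0.17, 0.00, 0.02 and -0.16 with LOY, and 0.09, 0.13, 0.17 and 0.31 with ABT263. The comparisons use separate tables and separate libraries, and the difference between them was not tested. The members with an unadjusted edgeR p under 0.05 with LOY are set side by side here. They were picked by their LOY values, and 24 of all 30 members were higher with ABT263. Stard4 was at -0.67 ± 0.24 with LOY and 0.34 ± 0.10 with ABT263, Sc5d at -0.68 ± 0.19 and 0.23 ± 0.13, and Dhcr7 at -0.23 ± 0.10 and 0.30 ± 0.11. Fads2 was at -0.66 ± 0.29 and 0.11 ± 0.09, and Lbr at -0.35 ± 0.11 and 0.10 ± 0.10. Fdps was at 0.38 ± 0.16 and -0.28 ± 0.33, and Msmo1 at 0.39 ± 0.12 and 0.17 ± 0.16. None of these values passed the threshold.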

How the data were processed

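Total RNA from kidneys was sequenced on an Illumina NovaSeq X (labels' protocols). For each comparison the authors deposited 1 table of whole-number read counts per gene. The submitters' processing notes name mm10; the sources used here do not name the aligner, counter, annotation or strand setting. In the first table the entry without a gene (0.223% to 0.401% of counts) was left out. Groups and animal numbers came from the labels; replicates are separately numbered animals and were checked as distinct libraries.

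Each table was fitted whole with edgeR 4.0.16 in R 4.3.3 (quasi-likelihood F test, robust; TMM; filterByExpr at its minimum count 10 and total 15), and p-values were adjusted by Benjamini-Hochberg over all genes tested (threshold 0.05). CPM use TMM-scaled totals; log2 CPM use a prior count of 2. DESeq2 1.42.0 and voom (limma 3.58.1) were alternatives, beside other scalings, filters, a threshold of 0.1, each kidney left out, and LOY 8 and 10 left out. Animal number above 10 (yes or no) was also used as a term, and the animals numbered above 10 were fitted alone. Added after seeing the data were an adipocyte marker term, leaving out Control 3 with LOY 10 or ABT263 15 with 18, and the 180 correlations with marker sums and scores. Scripts were tested on simulated counts. Gene coordinates and exon lengths are from GENCODE M21 (GRCm38), promoters from RefSeq (GRCm38.p6).

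The members and lists were chosen with earlier results of these data known, so lists are described by counts and medians without a test. All members are accounted for; those with values in every kidney are 8 anchors of the pathways and, per comparison, the 6 of smallest p, with Fads2, Acly and Gpam added after their values were seen. Of other lists, up to 5 genes past the threshold or else the 2 of smallest p are named, except for genes not reported here.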

Additional observations from a re-analysis of the deposited data

Results flagged for a closer look

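Within each group, the highest and the lowest kidney of each member were compared with the gap to the nearest other kidney over the range of the group. Of 120 gene and group combinations 14 held a kidney past the critical value of Dixon's test. That value is set for about 1 in 20 in a single normal sample. Genes of a group share the same kidneys and CPM need not be normal, so the count cannot be read against that rate. ABT263 16, the kidney with the high tubular injury markers, accounted for 5 of them. Acat2 was lowest there at 70.4 CPM, the next kidney being at 91.4, Cyp51 at 81.0 CPM, the next kidney being at 141, Idi1 at 17.2 CPM, the next kidney being at 49.1, and Sc5d at 41.0 CPM, the next kidney being at 58.8. Fdps was highest there at 1.39 CPM, the next kidney being at 0.828.

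The other compound-experiment flags were Insig1 in control-compound animal 6, at 132 CPM, the next kidney being at 53.1, and Lbr in ABT263 17, at 43.5 CPM, the next kidney being at 35.3. In LOY kidneys, Hmgcs1 was high in LOY 8 at 772 CPM, the next kidney being at 519, Fdps in LOY 8 at 54.2 CPM, the next kidney being at 35.6, and Pmvk in LOY 9 at 15.5 CPM, the next kidney being at 12.1. In Control kidneys, Fasn was high in Control 3 at 129.9 CPM, the next kidney being at 72.0, and Hsd17b7 was low in the same animal at 20.1 CPM, the next kidney being at 29.95. Nsdhl was high in Control 12 at 65.3 CPM, the next kidney being at 57.1, and Tm7sf2 in Control 16 at 26.9 CPM, the next kidney being at 21.98.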

How the results depend on the processing

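No paired analysis was possible because the groups compared share no animal numbers. With LOY, 0 members passed in edgeR with any scaling or filter; 1, Sc5d, passed with DESeq2 (1), voom (1) and an adjusted p of 0.1 (1), and leaving out 1 kidney gave 0 to 1 members, the 1 coming without Control 3. The number of genes past the threshold moved far more, from 176 to 866 with DESeq2, 1062 with voom, 451 among animals numbered above 10 alone, 377 with the adipocyte term, 105 with library totals alone, 29 without LOY 8 and 10 and 0 with animal number above 10 as a term. Leaving out 1 kidney at a time gave 0 (without Control 16 or Control 17) to 607 genes (without Control 3), with 2, 3 and 9 without Control 12, 11 and 13 and 1 without LOY 10. The median of the members stayed below that of all genes, between -0.15 and -0.06. With ABT263 0 members passed in every setting run, and the median moved from 0.15 to 0.0434 without ABT263 15 and 18. Of 720 alternative values with LOY 49 changed sign, in 14 members, and of 510 with ABT263 21, in 9; 0 of these values passed. With LOY, the log2 fold changes of opposite sign were, among animals numbered above 10 alone, Srebf1 -0.17, Acat2 -0.0992, Hmgcs1 -0.0625, Mvd -0.0288, Fdps -0.0134, Ggps1 0.15, Fdft1 -0.0592, Lss 0.0372, Tm7sf2 -0.21, Nsdhl -0.0785 and Ebp -0.20. With animal number above 10 as a term they were Srebf1 -0.0444, Acat2 -0.0221, Ggps1 0.22, Lss 0.0693, Tm7sf2 -0.0294 and Ebp -0.0908. Without LOY 8 and 10 they were Hmgcs1 -0.0132, Lss 0.0813 and Tm7sf2 -0.0567, and with voom Lss 0.0567 and Tm7sf2 -0.0530. With library totals alone they were Ggps1 0.00219 and Lss 0.00409, and with the adipocyte term Ggps1 0.0606 and Lss 0.0215. Upper-quartile factors gave Lss 0.00325, no filter gave Acat2 -0.000265, and leaving out Control 3 and LOY 10 gave Lss 0.00113. Leaving out 1 kidney at a time gave Acat2 -0.0100 to 0.0578, Fasn -0.34 to 0.0531, Ggps1 -0.10 to 0.0405, Insig1 -0.15 to 0.0219, Lss -0.0469 to 0.0321, Sqle -0.0112 to 0.0753, Srebf1 -0.0131 to 0.12 and Tm7sf2 -0.10 to 0.14. With ABT263 they were, with voom, Scap -0.00115, Insig1 0.37, Cyp51 -0.00355 and Tm7sf2 0.13; without ABT263 15 and 18, Cyp51 -0.20, Msmo1 -0.12 and Fasn -0.15; and with the adipocyte term, Cyp51 -0.10. Leaving out 1 kidney at a time gave Acat2 -0.0716 to 0.0570, Cyp51 -0.17 to 0.19, Hmgcs1 -0.0305 to 0.28, Hsd17b7 -0.0325 to 0.0796, Insig1 -0.39 to 0.38 and Tm7sf2 -0.14 to 0.10. The cause of these changes was not tested. At these depths each member except Fdps in the second table had a mean of more than 10 CPM, and Fdps at about 1 CPM rests on fewer.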
